A study of Sus scrofa with 12 samples.

Results

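The genes described are 9 claudin, tight junction and epithelial adhesion genes of the pig, CLDN1, CLDN3, CLDN4, CLDN7, CLDN10, TJP1, OCLN, F11R and EPCAM, out of 19550 protein-coding genes on the assembled chromosomes. They were taken as a list of symbols, with no threshold on the measured values, and all 9 were found by symbol in the RefSeq annotation of Sscrofa11.1. Binding of C/EBP-β, a DNA-binding protein of the CCAAT/enhancer-binding family and product of the gene CEBPB, was mapped by chromatin immunoprecipitation and sequencing (ChIP-seq) in whole endometrium of pregnant pigs. The libraries comprised 3 of day 15 and 3 of day 12 of pregnancy, all made with the same C/EBP-β antibody, and the 6 matching input samples were not analysed here. No strain, age or treatment is given in the labels, nor is it stated that replicates were separate animals. The p-values therefore speak for the variation among these 6 samples, which may be technical. Each library is represented by a list of peak summits, the 1 bp positions of highest signal, with a score that is a p-value or q-value as −log10. A summit was assigned to a gene when it lay within 5 kb, or in a wider window within 50 kb, of either end of the gene. The annotation used gives no strand or exons, so the ends are called lower and upper by coordinate, and no summit could be placed in an intron, an exon or a promoter.

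Tight junctions seal the space between neighbouring epithelial cells near their apical surface. Claudins are membrane proteins that form the sealing strands and set which ions and solutes pass, occludin (OCLN) and junctional adhesion molecule A (F11R) are further membrane proteins of the junction, and ZO-1 (TJP1) is the scaffold that ties them to the actin cytoskeleton. EPCAM is an epithelial adhesion protein that binds and stabilises claudins, CLDN7 among them. In the uterus the junctions of the luminal and glandular epithelium separate the lumen, where the conceptuses elongate and attach, from the stroma. Whole tissue was used, so sites in epithelium and in other cells cannot be told apart.

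List length varied several-fold among replicates. On the chromosomes 70152, 16529 and 11960 summits were listed for day 15 replicates 1 to 3, against 6557, 33294 and 57728 for day 12 replicates 1 to 3. Depth is unknown because reads were not counted in the files. A summit lay within 5 kb of an end of 64.8%, 44.6% and 37.6% of all protein-coding genes in the day 15 libraries and of 17.2%, 38.4% and 54.1% in the day 12 libraries. Within each day the order of these shares was that of list length, but day 15 replicate 2 reached more genes than day 12 replicate 2 with a shorter list. The peak names fall into 2 formats, with and without a directory path, called processing sets A and B here. Set A holds day 15 replicates 2 and 3 and day 12 replicate 1, and set B holds day 15 replicate 1 and day 12 replicates 2 and 3. The lists of set B are the 3 longest and those of set A the 3 shortest, so set and list length cannot be told apart. One sample code is common to the names in day 15 replicates 2 and 3, and no part of the names of replicate 3 mentions the protein, so its assignment rests on the labels. Of their 40 and 26 summits in the regions around the 9 genes, 0 were at identical positions.

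The 9 genes had summits close to their ends about as often as other genes. A summit within 5 kb of an end was present in 8, 5 and 4 of the 9 genes in day 15 replicates 1 to 3, against 1, 4 and 7 of the 9 in day 12 replicates 1 to 3. The mean was 5.67 ± 2.08 genes per library on day 15 and 4.0 ± 3.0 on day 12 (SD, n = 3 each), and the difference of 1.67 genes was below the SD of either day. It was 3.5 genes within set A, 2.5 genes within set B and 2.5 genes without day 15 replicate 3. With a summit in at least 2 of 3 libraries counted as bound, 5 of 9 genes were bound on day 15 (CLDN3, CLDN4, CLDN7, F11R and EPCAM), against 46.3% of all protein-coding genes. On day 12, 4 of 9 were bound (CLDN4, OCLN, F11R and EPCAM), against 38.1% of all genes. Without day 15 replicate 3, with both remaining libraries required, the same number, 5, was bound on day 15. Without day 12 replicate 2 or replicate 3 only 1 was bound on day 12. No share of all genes is given for these cases. CLDN4 had a summit in all 6 libraries, as did 13.1% of all genes. Presence in every day 15 library and absence from every day 12 library was found in 0 of the 9 genes and in 2.83% of all genes, and the reverse in 0 of the 9 and in 0.0307%. When each list was reduced to its 6557 highest-scoring summits, the length of the shortest list, CLDN4, CLDN7 and F11R counted as bound on day 15 (3 genes) and CLDN4 and EPCAM on day 12 (2 genes), against 20.3% and 9.68% of all genes.

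**Figure D1:**
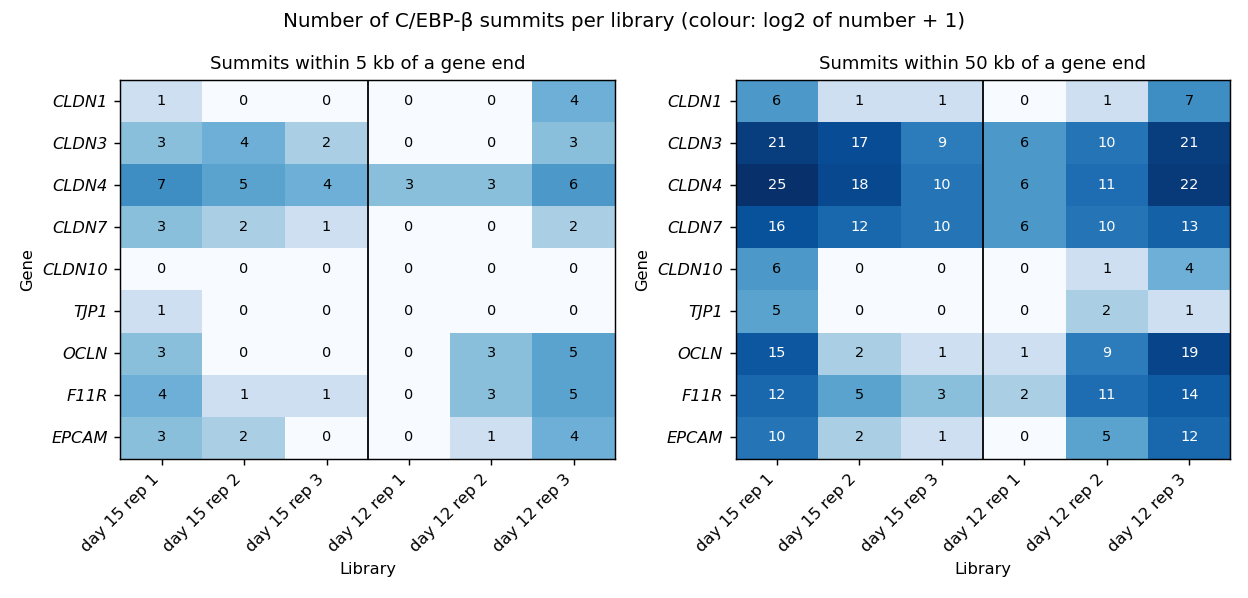
Number of summits within 5 kb (left) and 50 kb (right) of either end of each gene (rows) in each library (columns, day 15 left of the line, day 12 right of it), with the number printed in each cell and the colour on a log2 scale. CLDN4 is the only row with summits in all 6 libraries within 5 kb, and CLDN10 has 0 in all 6.

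**Figure D2:**
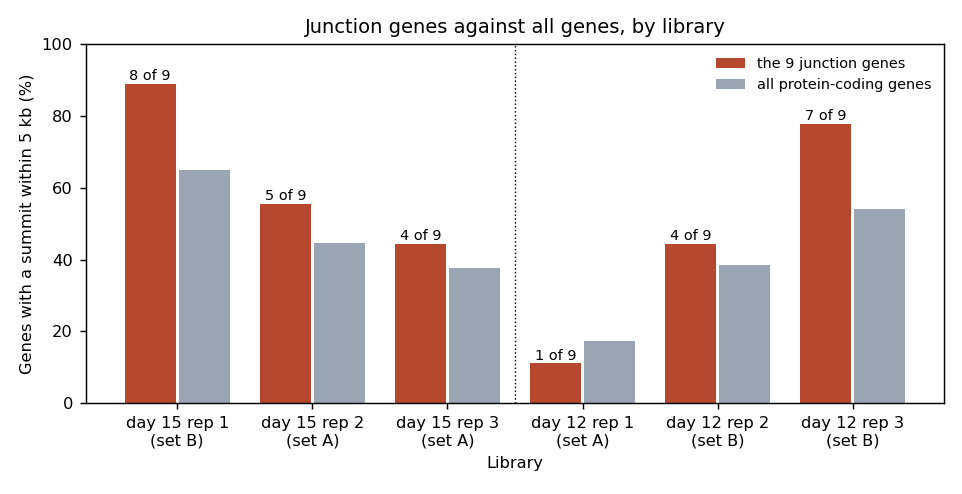
Share of the 9 junction genes and of all protein-coding genes (y axis, percent) with a summit within 5 kb of an end, by library (x axis, day 15 left of the dotted line). The junction genes follow the share of all genes, which is highest at 64.8% in day 15 replicate 1 and lowest at 17.2% in day 12 replicate 1.

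CLDN4 and CLDN3 lie next to each other on chromosome 3 and held the densest group of summits among the 9 genes. CLDN4 encodes a claudin of barrier epithelia that is also a receptor for Clostridium perfringens enterotoxin, and CLDN3 encodes a sealing claudin with the same receptor property. CLDN3 spans 11019073 to 11020102 and CLDN4 11039711 to 11053930 (Sscrofa11.1), 19609 bp apart. CLDN4 had 7, 5 and 4 summits within 5 kb in day 15 replicates 1 to 3 and 3, 3 and 6 in day 12 replicates 1 to 3, so the ranges of the days overlapped. CLDN3 had 3, 4 and 2 on day 15 and 0, 0 and 3 on day 12. All 3 day 15 libraries and a single day 12 library, replicate 3, thus had a summit next to CLDN3.

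At CLDN4 the summits of different libraries fell on the same places. Summits within 200 bp of each other in any library were joined into regions, 99058 in the genome, of which 2.73% had a summit in all 6 libraries. Distances are from the middle of a region. No region within 5 kb of CLDN4 reached 6 libraries, but 3 reached 5. The region with the highest scores of these lay inside the annotated gene at chr3:11051122-11051166, 2.8 kb from the upper end. As percentile of the score within each list, with 100 the highest, it stood at 97.7 and 81.6 in day 15 replicates 1 and 2, had no summit in day 15 replicate 3, and stood at 92.3, 94.3 and 98.6 in day 12 replicates 1 to 3. The ranges of the days overlapped, and day 15 replicate 2 was the lowest of the 5. The next, at chr3:11049811-11049865, also inside the gene and 4.1 kb from that end, stood at 76.3 and 42.0 in day 15 replicates 2 and 3 and at 61.2, 68.6 and 63.1 on day 12, and day 15 replicate 1 had no summit there. Both regions also lay within 5 kb of an end of METTL27, whose gene starts 892 bp beyond CLDN4. The third, at chr3:11037082-11037239, lay outside CLDN4, 2.6 kb from its lower end, and its percentiles ranged from 6.1 to 94.0, high in the 3 set B libraries (92.7 in day 15 replicate 1, 80.7 and 94.0 in day 12 replicates 2 and 3) and low in 2 set A libraries (6.7 in day 15 replicate 2, 6.1 in day 12 replicate 1).

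Summits next to CLDN3 itself were weaker and less shared. Of the 8 regions within 5 kb of CLDN3, 5 came from 1 library and no region had more than 3 libraries. The best percentile within 5 kb was 58.4, 47.3 and 42.4 in day 15 replicates 1 to 3 and 64.1 in day 12 replicate 3. With lists of equal length no summit remained within 5 kb of CLDN3 in any library (0 of 3 on each day). The presence pattern of CLDN3, all day 15 libraries and day 12 replicate 3, was shared by 1018 genes (5.21%), CLDN7 among them.

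Between and beyond these genes lay sites with scores near the top of some of the lists. Between CLDN3 and CLDN4, the region at chr3:11028986-11029054, 8.9 kb from CLDN3 and 10.7 kb from CLDN4, had percentiles of 94.7 and 30.1 in day 15 replicates 1 and 2 and of 63.6, 97.4 and 98.2 in day 12 replicates 1 to 3. The 3 highest values were those of set B, and day 15 replicate 3 had no summit there. Past CLDN4, 12.3 kb from its upper end and inside the annotated interval of TMEM270, the region chr3:11066218-11066281 had a summit in all 6 libraries. Its scores were 231.4, 31.4 and 11.6 in day 15 replicates 1 to 3 and 19.9, 68.7 and 117.6 in day 12 replicates 1 to 3, at percentiles of 99.74, 95.7 and 75.5 on day 15 and 88.8, 99.61 and 99.79 on day 12. It ranked 452 of the 2701 regions shared by all libraries by mean percentile. A second shared region, chr3:11003823-11003862, lay on the other side, 15.2 kb from CLDN3, inside LOC106509660 and within 5 kb of an end of ABHD11.

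**Figure D3:**
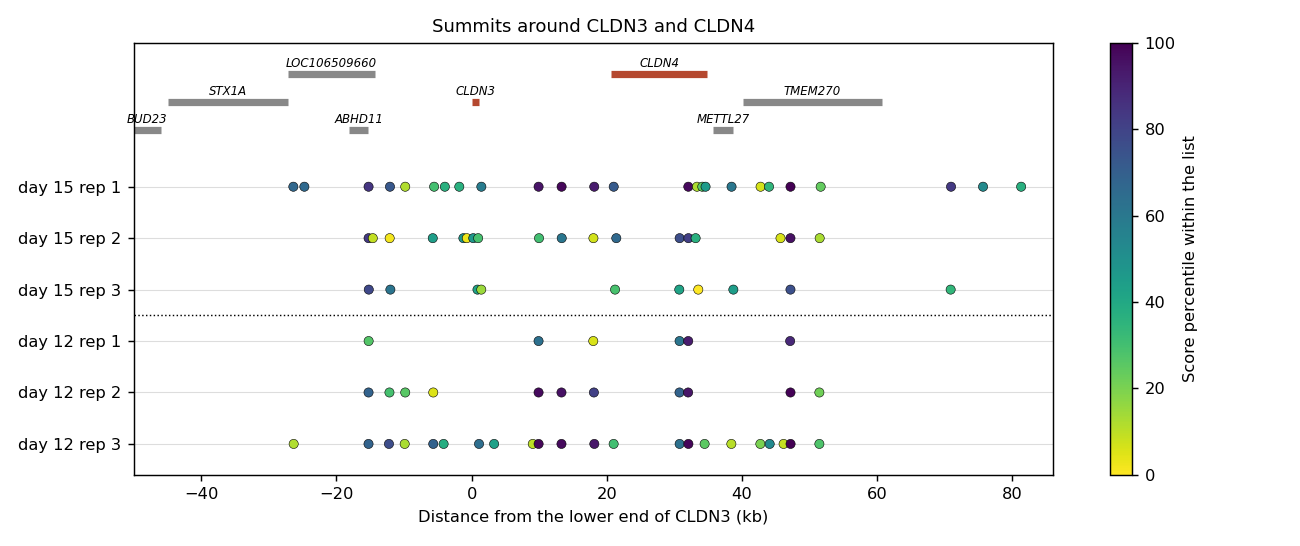
Position of each summit (points) around CLDN3 and CLDN4 in the 6 libraries (rows, day 15 above the dotted line), as distance in kb from the lower end of CLDN3, coloured by score percentile within the list, with protein-coding genes as bars above (red, the junction genes). The columns of dark points inside CLDN4 and inside TMEM270 mark sites with high scores in most libraries. Between the genes the dark points are those of the set B libraries, day 15 replicate 1 and day 12 replicates 2 and 3.

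CLDN7, a claudin that partners with EPCAM at the basolateral membrane, had its recurrent site inside the gene rather than at its ends. The gene spans 52612517 to 52628376 on chromosome 12, and ELP5 ends 242 bp away. Within 5 kb of an end it had 3, 2 and 1 summits in day 15 replicates 1 to 3 and 0, 0 and 2 in day 12 replicates 1 to 3. No summit lay within 1 kb of an end in any library. The most shared of these places, chr12:52614852-52615020, stood at percentiles of 12.2, 73.9 and 71.4 on day 15 and had 1 summit on day 12, at 45.3 in replicate 3. Just outside the 5 kb window, 5.5 kb inside the upper end, chr12:52622821-52622843 had a summit in all 6 libraries. Its percentiles were 89.0, 58.0 and 81.6 in day 15 replicates 1 to 3 and 93.8, 95.3 and 76.6 in day 12 replicates 1 to 3, so the days overlapped. Its summits lay within 23 bp of each other. With lists of equal length CLDN7 had summits within 5 kb in 2 day 15 libraries and in no day 12 library.

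CLDN1 and CLDN10 had few summits. CLDN1, a claudin required for the epidermal water barrier in mice, lies at 127714857 to 127730628 on chromosome 13. It had 1, 0 and 0 summits within 5 kb in day 15 replicates 1 to 3 and 0, 0 and 4 in day 12 replicates 1 to 3, so its summits came only from the longest list of each day. Of its 4 regions within 5 kb, 3 came from day 12 replicate 3 alone, the highest of them at percentile 94.1. The most shared region in its wider window was chr13:127762591-127762660, 32.0 kb beyond the upper end, with percentiles of 76.6, 61.7 and 71.4 in the 3 day 15 libraries and 61.9 in day 12 replicate 3. CLDN10, which encodes isoforms that form ion-selective pores, spans 117.3 kb of chromosome 11 (65027706 to 65145002). It had 0 summits within 5 kb of an end in all 6 libraries, a pattern of 29.5% of all genes. Within 50 kb it had 6, 0 and 0 summits on day 15 and 0, 1 and 4 on day 12, all in set B, and no region there had more than 3 libraries.

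OCLN showed a strong site inside the gene, and presence of summits at its ends that split by processing set and list length alike. OCLN spans 47600175 to 47652435 on chromosome 16. Within 5 kb it had 3, 0 and 0 summits in day 15 replicates 1 to 3 and 0, 3 and 5 in day 12 replicates 1 to 3. The libraries with summits were the 3 of set B, which are the longest lists, and those without were the 3 of set A. This pattern was found in 5.87% of all genes. The 1 of 3 of OCLN on day 15 and 2 of 3 on day 12 cannot be told apart from set or list length. Other genes with the same pattern included the junction genes CLDN12, CXADR and MARVELD3 and the epithelial regulators GRHL3 and ST14. Inside the gene, 21.4 kb from the upper end, chr16:47631049-47631069 had a summit in all 6 libraries within 21 bp. Its scores were 153.7, 16.8 and 2.0 in day 15 replicates 1 to 3 and 11.2, 30.5 and 79.3 in day 12 replicates 1 to 3. The percentiles were 99.1, 85.2 and 2.7 on day 15 and 70.1, 96.0 and 99.2 on day 12, with the lowest and nearly the highest value in the same day. Farther away, 37.5 kb below OCLN, chr16:47562632-47562686 lay inside MARVELD2, the gene of tricellulin, a relative of occludin at the corners where cells meet. It stood at 67.3 in day 15 replicate 2 and at 85.0 and 96.7 in day 12 replicates 2 and 3. Also inside MARVELD2, chr16:47561746-47561769 stood at 98.5 in day 15 replicate 1 and 91.7 in day 12 replicate 2. A summit at chr16:47561067 stood at 91.2 in day 12 replicate 3 alone.

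TJP1, the longest of the genes at 265.5 kb (chromosome 1, 144930387 to 145195857), had 1, 0 and 0 summits within 5 kb on day 15 and 0, 0 and 0 on day 12. The windows at its ends leave out most of the gene. Inside it, 90.4 kb from the lower end, chr1:145020810-145020835 had a summit in all 6 libraries within 26 bp. Its percentiles were 92.0, 80.1 and 53.2 in day 15 replicates 1 to 3 and 81.2, 89.9 and 87.1 in day 12 replicates 1 to 3, and the days overlapped. Of 14 regions inside TJP1 and outside the 50 kb windows, this was the 1 shared by all libraries. The whole gene with 5 kb on either side held 16, 2 and 1 summits in day 15 replicates 1 to 3, against 1, 6 and 9 in day 12 replicates 1 to 3. The annotated interval of SEH1L overlaps that of TJP1.

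F11R had the most shared site within 1 kb of a gene end among the 9 genes. The gene lies at 89425101 to 89447889 on chromosome 4. It had 4, 1 and 1 summits within 5 kb in day 15 replicates 1 to 3 and 0, 3 and 5 in day 12 replicates 1 to 3. The region chr4:89424781-89424994, centred 214 bp outside its lower end, had a summit in 5 of 6 libraries, at percentiles of 80.1, 38.2 and 74.6 on day 15 and of 50 and 76.1 in day 12 replicates 2 and 3. The nearest other gene, TSTD1, was 22360 bp away, so this site counts for no other protein-coding gene within 5 kb. The regions chr4:89428646-89428681 and chr4:89449721-89449824, 3.6 kb inside the lower and 1.9 kb outside the upper end, had summits in the 3 set B libraries only, at 92.3 and 83.6 in day 15 replicate 1, 51.8 and 75.2 in day 12 replicate 2 and 75.9 and 83.1 in day 12 replicate 3. With equal lists summits near F11R came from 2 day 15 libraries and no day 12 library.

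EPCAM, on chromosome 3 at 93169800 to 93185221, had 3, 2 and 0 summits within 5 kb in day 15 replicates 1 to 3 and 0, 1 and 4 in day 12 replicates 1 to 3. The summits nearest its upper end, in a region at chr3:93185169-93185531, were low in their lists, at percentiles of 36.2 and 17.9 in day 15 replicates 1 and 2 and 2.0 in day 12 replicate 3. A higher site at chr3:93188004-93188090, 2.8 kb beyond that end, had summits in day 12 replicates 2 and 3 alone, at 83.6 and 91.5. Another, chr3:93167840-93167903, 1.9 kb below the lower end, stood at 72.3 in day 15 replicate 1 and 72.2 in day 12 replicate 3. In the wider window chr3:93219662-93219683, 34.5 kb beyond the upper end, stood at 97.5 in day 15 replicate 1. It stood at 64.0 and 96.3 in day 12 replicates 2 and 3. With equal lists summits within 5 kb of EPCAM came from no day 15 library and 2 day 12 libraries. No region within 50 kb of EPCAM had more than 3 libraries.

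**Figure D4:**
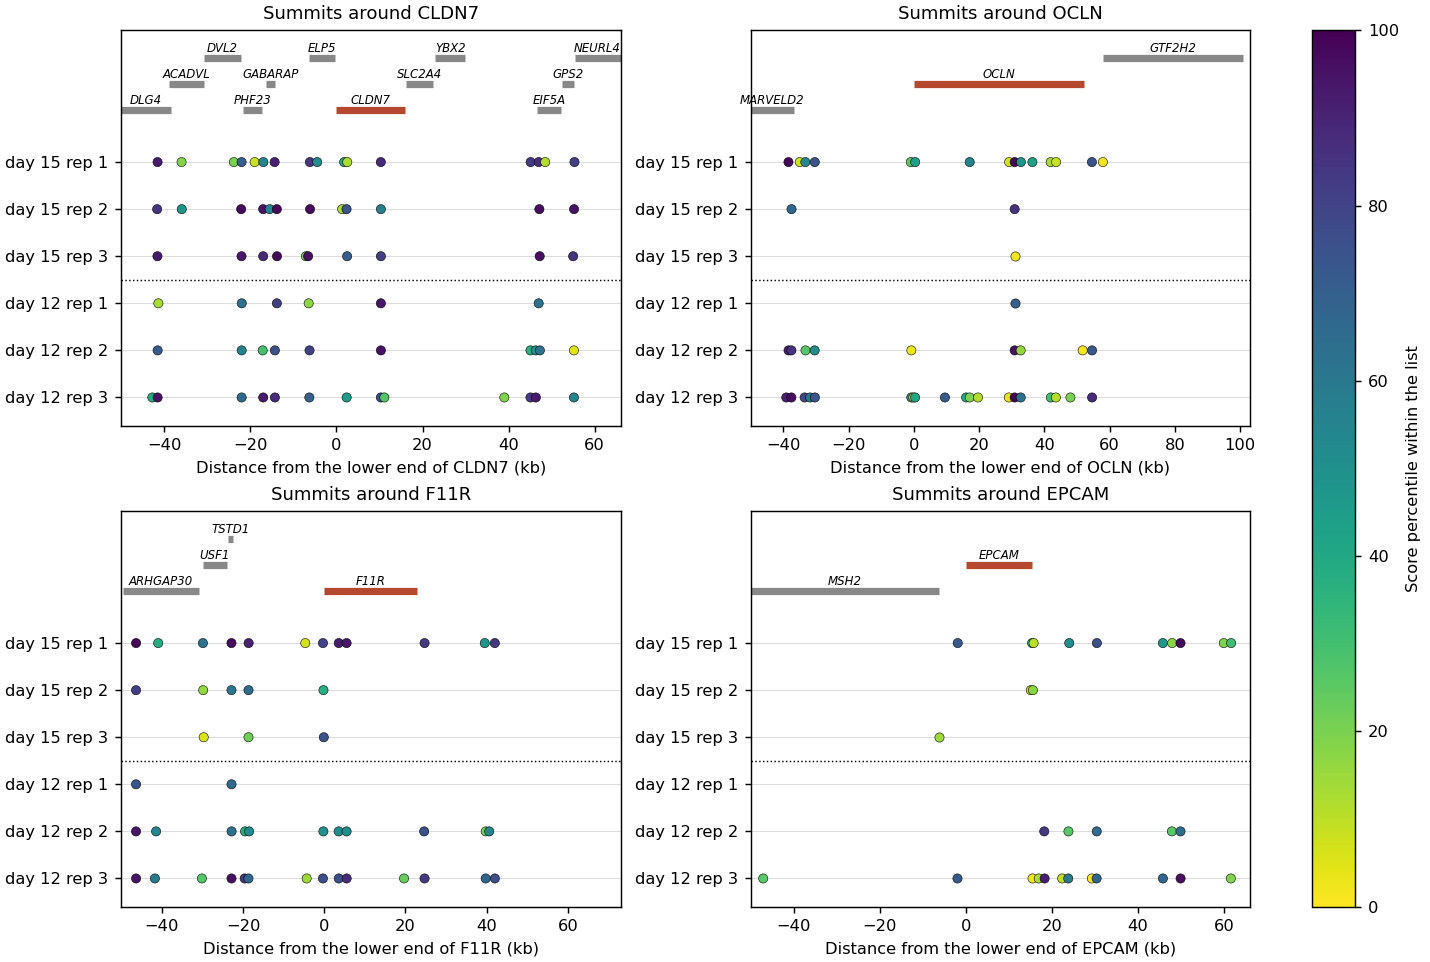
Summits (points) around CLDN7, OCLN, F11R and EPCAM in the 6 libraries (rows, day 15 above the dotted line), as distance in kb from the lower end of each gene, coloured by score percentile within the list, with protein-coding genes as bars. CLDN7 and OCLN each have a column of points inside the gene in all 6 rows, while most points at OCLN and EPCAM lie in day 15 replicate 1 and day 12 replicates 2 and 3.

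Over 50 kb the 9 genes separated into those in dense and those in sparse surroundings. The number of summits within 50 kb of an end was scaled to 10000 summits of the library. CLDN4 had 3.56, 10.9 and 8.36 in day 15 replicates 1 to 3 and 9.15, 3.30 and 3.81 in day 12 replicates 1 to 3, and the days overlapped. Every value of set A, the shorter lists, was above every value of set B, and the same held for CLDN3 and CLDN7. CLDN3, CLDN4 and CLDN7 had a higher mean over the 6 libraries (6.1, 6.51 and 5.38) than 99.9%, 99.9% and 99.7% of all protein-coding genes. These are 2 neighbourhoods rather than 3, because all 32 regions of CLDN3 also lay within 50 kb of CLDN4 (100% of its regions and 88.9% of the 36 of CLDN4). CLDN7 has 11 other protein-coding genes within 50 kb, and each of its regions shared by all 6 libraries, except that inside the gene, lay within 5 kb of an end of another gene. F11R and OCLN had means of 2.67 and 1.95, above 93.0% and 84.1% of genes, and EPCAM 1.18, above 63.3%. CLDN1 (0.635), CLDN10 (0.308) and TJP1 (0.248) were above 39.8%, 24.0% and 21.2% of genes. Scaling gives a summit of a short list more weight. By the unscaled number over the 6 libraries F11R and OCLN were equal, with 47 summits each, above 95.2% of genes. In that measure CLDN4, CLDN3 and CLDN7 stood above 99.8%, 99.7% and 99.2% of genes, EPCAM above 79.6%, CLDN1 above 49.0%, CLDN10 above 34.7% and TJP1 above 25.8%.

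No difference between the days in this measure passed the test for any of the 9 genes. The mean was 7.60 ± 3.72 on day 15 and 5.42 ± 3.24 on day 12 for CLDN4, and 1.39 ± 0.67 and 2.51 ± 0.899 for OCLN (SD, n = 3 each). The difference of CLDN4 was 2.18 (two-sided exact permutation p = 0.6) and that of OCLN −1.11 (exact permutation p = 0.2), and 3 against 3 libraries cannot give a p below 0.1. With a library left out, the difference of CLDN4 was lowest at 0.54 when this was day 15 replicate 2, and highest when it was replicate 1 of either day (4.2 for that of day 15, 4.05 for that of day 12). The exact permutation p-values of the 9 genes ranged from 0.2 to 1, and adjusted over all 19550 genes (Benjamini-Hochberg) from 0.831 to 1, with 0.755 the smallest of any gene. Values of the days did not overlap in 0 of the 9 genes, against 9.51% of all genes with higher and 3.74% with lower values on day 15. Within set A and set B the difference of CLDN4 was 0.48 and 0.01, and that of OCLN −0.50 and −0.86. CLDN3 and CLDN7 had differences of 1.67 and 1.17 over all libraries but lower values on day 15 within both sets, by −0.25 and −0.33 for CLDN3 and by −1.34 and −0.35 for CLDN7. For F11R the difference was −0.51, with −0.28 in set A and −1.15 in set B. For EPCAM, CLDN1, CLDN10 and TJP1 it lay between −0.05 (CLDN10) and 0.26 (CLDN1). Presence within 50 kb was broad: 7 of 9 genes had a summit in at least 2 libraries of day 15 (74.2% of all genes) and 9 of 9 in at least 2 of day 12 (80.0% of all genes). CLDN3, CLDN4, CLDN7, OCLN and F11R, 5 of 9, had one in all 6 libraries (40.5% of all genes).

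Around the 9 genes 145 distinct regions were found within 50 kb, and 7 of them were shared by all 6 libraries. They lay near CLDN3 and CLDN4 (2), CLDN7 (4) and OCLN (1), so 4 of 9 genes had such a region, against 26.2% of all genes. A single library supplied 49.0% of the 145 regions, close to 50.5% of all regions. Regions from set B alone made up 69.0% of the 145 and 78.0% of all regions, and those from set A alone 8.28% and 4.23%.

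The score percentile of 3 of the 7 shared regions was higher in every day 15 library than in every day 12 library, against 14.5% of the 2701 shared regions in the genome. All 3 lay within 5 kb of an end of another gene. The region chr12:52605929-52606371, 443 bp wide and 6.4 kb below CLDN7, spanned the lower end of ELP5. Its summits in day 15 replicate 3 and day 12 replicate 1 lay outside ELP5. Its percentiles were 84.5, 97.0 and 96.5 in day 15 replicates 1 to 3 and 17.0, 80.5 and 69.5 in day 12 replicates 1 to 3. The means were 92.7 ± 7.07 on day 15 and 55.7 ± 34 on day 12 (SD, n = 3 each), a difference of 37.0 points (two-sided exact permutation p = 0.1, the smallest possible, adjusted p = 0.645 over the shared regions). The difference was 79.8 points in set A, 9.53 in set B and 17.7 without day 12 replicate 1. The region near DVL2 and PHF23, chr12:52590371-52590504, stood at 70.7, 97.0 and 93.7 on day 15 and at 63.6, 56.8 and 66.1 on day 12, a difference of 24.9 points (exact permutation p = 0.1, adjusted 0.645), 31.7 in set A and 9.20 in set B. The region near ABHD11, 15.2 kb from CLDN3, stood at 84.7, 83.2 and 78.2 on day 15 and at 26.8, 68.7 and 68.7 on day 12, a difference of 27.3 points (exact permutation p = 0.1, adjusted 0.645), 53.9 in set A, 16.0 in set B and 13.3 without day 12 replicate 1.

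The days overlapped in the other 4 regions. The region near DLG4 and ACADVL, 41.5 kb from CLDN7, stood at 93.1, 85.8 and 93.2 on day 15 and at 13.6, 71.7 and 95.4 on day 12, a difference of 30.5 points, and of 7.15 without day 12 replicate 1. The region inside CLDN7 had means of 76.2 ± 16.2 on day 15 and 88.6 ± 10.4 on day 12 (difference −12.4 points, exact permutation p = 0.4), and leaving out day 15 replicate 2 gave −3.30 points and leaving out day 15 replicate 1 gave −18.8 points. That inside OCLN had 62.3 ± 52.1 and 88.4 ± 16.0 (−26.1 points, exact permutation p = 0.6), and the difference was 3.72 points without day 15 replicate 3. That beyond CLDN4 had 90.3 ± 13.0 and 96.1 ± 6.28 (−5.76 points, exact permutation p = 0.6), and 1.66 points without day 15 replicate 3. Of the 7 regions, 0 had lower percentiles in every day 15 library, against 1.04% of all shared regions. Day 12 replicate 1, the lowest library in the regions near ELP5 and ABHD11, and day 15 replicate 3, the lowest in those of OCLN and CLDN4, hold the shortest list of their day. The part of list length in these differences was not tested.

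**Figure D5:**
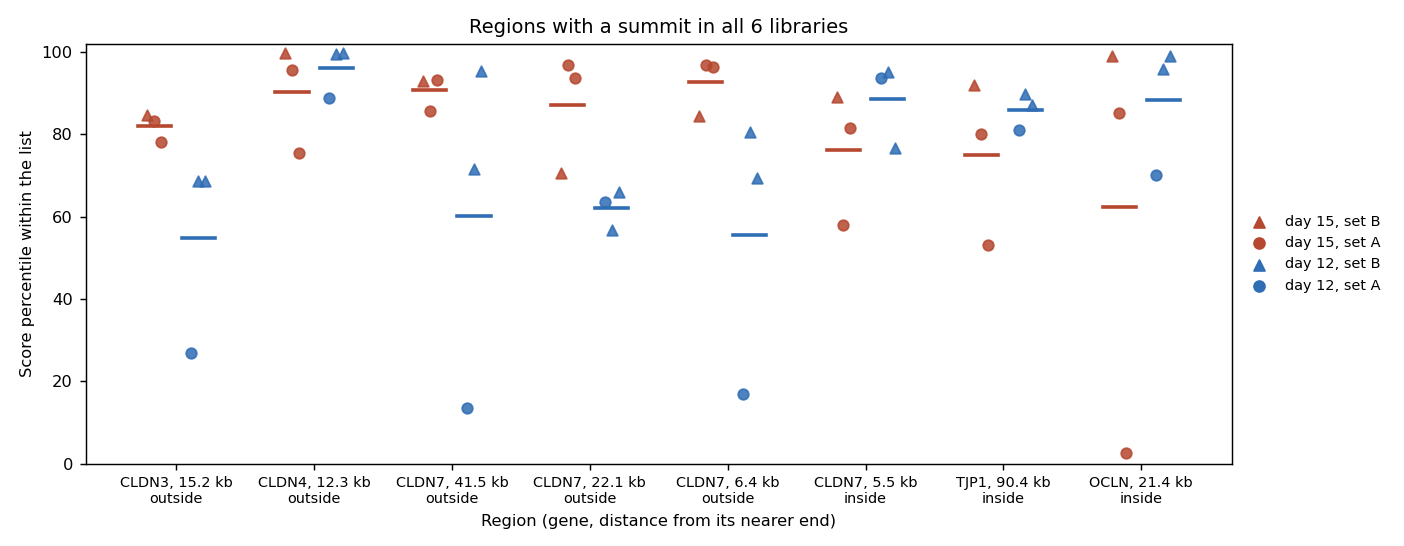
Score percentile within the list (y axis) of each region with a summit in all 6 libraries near or inside the junction genes (x axis, named by the nearest of these genes and the distance from its nearer end), day 15 in red left of day 12 in blue. Points are libraries, with triangles for set B and circles for set A, and lines are means. The regions outside CLDN3 and at 22.1 and 6.4 kb outside CLDN7 are those in which the days do not overlap.

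The share bound varied among other lists of junction genes and their regulators, beside 46.3% of all genes on day 15 and 38.1% on day 12. Among 16 other claudin genes, 4 were bound on each day (25%), and 8 had no summit within 5 kb in any library. Those bound were CLDN6, CLDN8, CLDN9 and CLDN15 on day 15 and CLDN8, CLDN12, CLDN16 and CLDN22 on day 12. Of 32 further genes of junction proteins, 56.2% (18) counted as bound on each day. CGN (cingulin, a cytoplasmic junction protein), PARD6A (a polarity protein) and AMOTL2 had a summit in all 6 libraries. LSR, the gene of the tricellular junction protein angulin-1, had summits in every day 15 library and in no day 12 library. Of 19 epithelial regulators, 12 were bound on day 15 and 10 on day 12. KLF4 had a summit in all 6 libraries, and GRHL2, the grainyhead factor that acts on claudin and cadherin genes, in 5, the pattern of F11R. Of 8 genes of repressors of epithelial transcription, 7 had summits in at least 2 libraries of day 15 and 3 in at least 2 of day 12. For SNAI1 and ZEB1 summits were present in every day 15 library and in no day 12 library, and for SNAI2 and TCF3 in all 6. ZEB2 was the third gene bound on day 12.

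Marker genes of other endometrial cells also carried summits, beside 46.3% of all genes bound on day 15 and 38.1% on day 12. The share bound was above that of all genes only for the stromal markers on day 15 (75.0%). Of 8 stromal markers, 6 were bound on day 15 and 3 on day 12 (VIM, COL3A1 and PDGFRA), with PDGFRA in all 6 libraries. Of 7 endothelial markers, 1 was bound on each day, CDH5, with a summit in all 6 libraries. Of 7 leucocyte markers, 3 were bound on day 15 (CD14, NKG7 and ITGAM) and 2 on day 12 (CD14 and ITGAM), with ITGAM in all 6. Of 7 neuronal genes, 1 was bound on each day, DCX. Expression was not measured, and presence of a summit does not show in which cells a gene is bound.

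The genes closest to each of the 9 in their pattern of presence over the 6 libraries were those with an identical pattern, matching in 6 of 6 libraries. They included epithelial regulators, markers of other cell types and repressors as well as junction genes. CLDN4 shared its pattern with the junction genes AMOTL2, CGN and PARD6A, with KLF4, with CDH5 of endothelium, ITGAM of leucocytes and PDGFRA of stroma, and with the repressors SNAI2 and TCF3. F11R shared its pattern with 10.0% of all genes, including the polarity genes PARD3 and PARD6B and the epithelial regulators GRHL2, KLF5 and SPINT2. The stromal markers VIM and COL3A1 and the repressor ZEB2 also had it. EPCAM shared its pattern with 3.67% of all genes, including CLDN8 and MARVELD2 and the epithelial regulators ESRP1, OVOL1 and TP63. The leucocyte marker CD14 and the neuronal gene DCX were also among them. CLDN1 shared its pattern with 5.21% of all genes, including CLDN11, ILDR1 and PATJ and the epithelial regulators EHF and OVOL2. The endothelial marker KDR, the stromal marker THY1 and the neuronal gene SYN1 had it as well. The pattern of CLDN3 and CLDN7 was also that of CLDN6, of the stromal markers COL1A1 and DCN and of the leucocyte marker NKG7. TJP1 shared its pattern, a summit in day 15 replicate 1 alone, with 6.87% of all genes. These included BVES, the epithelial regulator SPINT1, the stromal marker LUM, the endothelial marker PECAM1 and the repressor TWIST1.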

How the data were processed

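Per the submitters' processing notes, reads were handled with Bowtie2 2.3.5.1, SAMtools 1.9 and MACS2 2.1.2 on the build susScr11. The authors deposited 1 list of summits per library, with a −log10 score that stands for a p-value or q-value, and which of them is not given in the sources used here, nor are the calling threshold and the use of the input. Scores grow with depth, so the tests of regions compared libraries by percentiles within a list. The scores printed for single regions and the score minimums among the alternatives were not adjusted for depth. Gene positions came from the RefSeq table of Sscrofa11.1, the assembly behind susScr11. Unplaced sequences were left out, positions were counted from 1, and summits within 200 bp were joined into regions. Windows of 5 and 50 kb around both gene ends were counted for all 19550 protein-coding genes. Two-sided exact permutation tests over the 6 libraries with Benjamini-Hochberg adjustment were run for all genes and for all 2701 shared regions, and tested on simulated lists. Python 3.11.15, numpy 2.4.6 and pandas 2.3.3 were used.

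The genes and the 8 comparison lists were chosen with earlier results of these data known. The rule for named genes took all 9 genes and, from the comparison lists, genes with a summit in all 6 libraries or in 3 of 3 of one day and 0 of 3 of the other, up to 6 of each kind. It also took genes with the same pattern as a member and genes with an end within 5 kb of a region described. Bound genes of the comparison lists outside this rule were named after their values were seen. A few genes with a matching pattern are not reported here. CLDN34 and PALS1 had no match in the table. Planned counts of motifs in promoters need sequence and were not run. Alternatives were score minimums of 5 and 10, equal lists, windows of 1 and 10 kb, the gene body with 5 or 50 kb on either side, all 3 libraries of a day, joining within 100 or 500 bp, no scaling, averaging within processing sets, pairing by replicate number, and leaving out each library.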

Additional observations from a re-analysis of the deposited data

How the results depend on the processing

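The number of genes bound within 5 kb moved with the rule. With a score of at least 10 it was 3 on day 15 and 4 on day 12, and in a window of 10 kb 5 and 6 (52.7% and 48.9% of all genes). The order of the days by count turned round in both, while the share of all genes in the 10 kb window stayed higher on day 15. It was 3 on day 15 and 2 on day 12 with equal lists (20.3% and 9.68% of all genes), and 4 and 2 in a window of 1 kb (36.7% and 21.2% of all genes). With the gene body added it was 7 on each day (52.9% and 50.9% of all genes). When all 3 libraries were required it was 4 on day 15 and 1 on day 12, and with a library left out 4 to 5 on day 15 and 1 to 4 on day 12. No share of all genes is given for these rules or for the score of at least 10, so their counts cannot be set against other genes. Regions shared by all 6 libraries numbered 7 in the main setting. They numbered 4 with a score of at least 5, 1 with a score of at least 10 and 1 with equal lists. Joining within 100 bp gave 5 and joining within 500 bp gave 8. With 100 bp the regions near ELP5 and near DLG4 and ACADVL were no longer shared by all 6 libraries. Leaving out a library gave 7 to 12, but then only the remaining libraries were required. This looser rule does not show how stable the number is.

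The difference between days in summits per 10000 changed sign in 27 recomputed values, and the cause was not tested. It became 0 for CLDN10 and TJP1 with equal lists, for CLDN1 without scaling and, to 2 decimals, for CLDN3 without day 15 replicate 2. With a score of at least 5 it was 0.09 for CLDN10 and 0.27 for TJP1. With a score of at least 10 it was −0.25 for CLDN3, −0.14 for CLDN4, 0.23 for CLDN10 and 0.11 for TJP1. With equal lists it was −1.02 for CLDN3, −1.02 for CLDN4 and 2.03 for F11R. Without scaling it was 0.33 summits for CLDN10 and 0.67 for TJP1. Averaged within processing sets it was −0.29 for CLDN3, −0.84 for CLDN7, 0.18 for CLDN10, 0.16 for TJP1 and 0.33 for EPCAM. With a library left out it ranged from 0.54 to 4.2 for CLDN4, from 0 to 3.64 for CLDN3, from −1.60 to −0.72 for OCLN, from −0.82 to −0.16 for F11R, from 0.01 to 0.62 for CLDN1, from −0.11 to 3.34 for CLDN7, from −0.33 to 0.13 for CLDN10, from −0.26 to 0.15 for TJP1 and from −0.63 to 0.41 for EPCAM. The percentile difference ranged from −44.5 to 3.72 points in the region inside OCLN and from −10.5 to 1.66 in that beyond CLDN4. The difference in the mean number of genes with a summit per library ranged from 0.167 to 3.17 with a library left out and was 0 with equal lists and −0.333 with a score of at least 10.

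Deviations of libraries with the same replicate number correlated at −0.47, −0.16 and −0.32. The libraries of each replicate number lay in different processing sets, so these values cannot show whether the numbers pair the samples. A replicate block leaves a difference of means, such as the 1.67 genes, unchanged by construction. With this block 16 paired exact sign-flip tests gave p from 0.25 to 1, with 0.25 the smallest possible. Averaging within sets is not defined for counts of bound genes, for shared regions or for libraries per gene. Some shared regions lost a library with a stricter score, equal lists or joining within 100 bp and then had no value. Depth is unknown, which limits what the absence of a summit shows, most of all in the short lists.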
